A study of Mus musculus with 6 samples.

Results

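The genes described here are those of autophagy and mitophagy in mouse embryonic erythroblasts with and without Setd8. They are all gene rows whose symbol is Atg followed by a digit (17 rows) and 23 listed genes, 40 of the 23284 gene rows of the count tables. The rule uses gene names and no measured value, but the list was drawn up with earlier results of these data known. The cells were Ter119+ CD71+ erythroblasts sorted from mouse embryos of the C57BL/6 strain at stage E10.5, and polyadenylated RNA was sequenced. The design text gives their source as blood, whereas the sample labels give liver. The null group held 3 libraries labelled SETD8fl/fl EpoR Cre, in which a Cre recombinase from the erythropoietin receptor locus, active in erythroid cells, acts on a loxP-flanked Setd8, the gene for a histone H4 lysine methyltransferase. The control group held 3 libraries of unlike genotype: control replicates 1 and 3 were Setd8 +/+ EpoRCre, with Cre and no floxed allele, and control replicate 2 was Setd8 fl/fl EpoR WT, with the floxed allele and no Cre. The replicate numbers were given here in the order of the samples and pair nothing. Some sample titles end in a letter. The unlettered set was made up of control replicates 1 and 2 and null replicate 1, and the lettered set of control replicate 3 and null replicates 2 and 3. The labels do not say whether the libraries of a group came from separate embryos or litters, so p-values measure only the spread between these libraries, which may be technical.

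Autophagy encloses cytoplasm, protein aggregates or organelles in a double membrane, the autophagosome, which fuses with the lysosome. A kinase complex around ULK1 starts the process, a lipid kinase complex around Beclin 1 marks the membrane, ATG9 and ATG2 supply lipid, ubiquitin-like conjugation systems attach LC3 and GABARAP proteins to the membrane, and receptors such as p62 (Sqstm1) tie cargo to them. Erythroblasts lose their mitochondria by mitophagy, the autophagy of mitochondria, as they mature, with NIX (Bnip3l) as the best known receptor. RNA levels do not measure the flux through this pathway, which was not measured in these libraries.

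Libraries held 7756940 to 21434719 counts assigned to genes, and levels are given below as CPM, the counts of a gene scaled to a library of 1e+06 counts, with library sizes adjusted by TMM factors. Before that adjustment 3 counts were worth between 0.140 and 0.387 CPM. Setd8 itself was read at 73.9, 74.8 and 203 CPM in control replicates 1 to 3 and at 48.9, 100.3 and 96.3 CPM in null replicates 1 to 3. Its level overlapped between the groups and was lower in the null libraries within each title set, and these counts do not say whether reads come from the deleted exons. The erythroid marker Alas2 was at least 2288 CPM in all 6 libraries and the hepatocyte marker Alb had no count in any. The 9 erythroid markers summed to between 346230 and 524459 CPM in the control and between 212633 and 503945 CPM in the null libraries. These sums overlapped between the groups and were lower in the null libraries within each title set. In the edgeR test below with the title set as a term, 3 of the 9 were called lower and 0 higher, against 4.16% and 8.65% of all tested genes. Globin transcripts took 45.2%, 44.4% and 37.1% of the counts in control replicates 1 to 3 and 39.9%, 28.3% and 26.5% in null replicates 1 to 3. Summed markers of macrophages, endothelium and megakaryocytes were higher in the null libraries, and those of hepatocytes overlapped between the groups. The 11 macrophage markers summed to between 1.81 and 11.1 CPM in the control libraries and between 34.1 and 91.1 CPM in the null libraries. Of the 11, 5 were higher in all null than in all control libraries, against 14.9% of all tested genes. Emr1 and Aif1 had no count in any control library, and Emr1, which is not 1 of those 5, had none in null replicate 1. The 6 endothelial markers summed to between 3.73 and 11.6 CPM in the control and between 23.6 and 33.3 CPM in the null libraries, with Esam and Cdh5 at 0 in all control libraries. Of the 6, 3 were higher in all null than in all control libraries. The 5 megakaryocyte markers summed to between 14.2 and 31.0 CPM in the control and between 40.5 and 81.4 CPM in the null libraries. Only 1 of these 5 was higher in all null than in all control libraries. The 5 hepatic markers summed to between 0 and 3.30 CPM in the control and between 0.103 and 3.86 CPM in the null libraries, and none of the 5 was higher in all null than in all control libraries. The part of these cells in the results below was not tested, and in bulk samples fewer cells of a type and less RNA per cell cannot be told apart.

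The question put to the autophagy genes was which of them differed between null and control erythroblasts. Of the 40 genes, 38 passed the filter on low counts. With group as the only term, edgeR's quasi-likelihood test with Benjamini-Hochberg adjustment over all 10512 tested genes called 0 of the 38 higher and 0 lower at an adjusted p of 0.05, against 1.14% of all tested genes called higher and 0.00951% lower (1.15% in either direction). At an unadjusted p under 0.05 the count was 6 higher and 0 lower of 38 (15.8% and 0%), against 10.6% and 4.99% of all tested genes. DESeq2 called 3 members higher, against 6.63% of all tested genes, and the smallest adjusted p of a member in edgeR was 0.110, for Ulk1. Members differed between libraries with and without a title letter, and with that set as a further term 8 of the 38 rose in the null libraries and 0 fell, which is 21.1% of the members tested against 8.65% of all tested genes called higher and 4.16% called lower (12.8% in either direction). The 8 were Ulk1, Atg9a, Wipi1, Map1lc3b, Gabarap, Sqstm1, Optn and Bnip3. Without null replicate 1, the only null library of the unlettered set, 2 of them passed, Sqstm1 and Bnip3. The ratio in that fit rests on control replicate 3 against null replicates 2 and 3. The share of all tested genes called in that fit is not given here, so the drop is not a result about the members. The 8 came from the induction complex (1 of 4 tested), the ATG9, ATG2 and WIPI group (2 of 5), the LC3 and GABARAP family (2 of 5), the cargo receptors (2 of 4) and the mitophagy receptors (1 of 2). None of the 6 lipid kinase genes, none of the 11 conjugation genes and not Vmp1 passed in either fit.

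**Figure D1:**
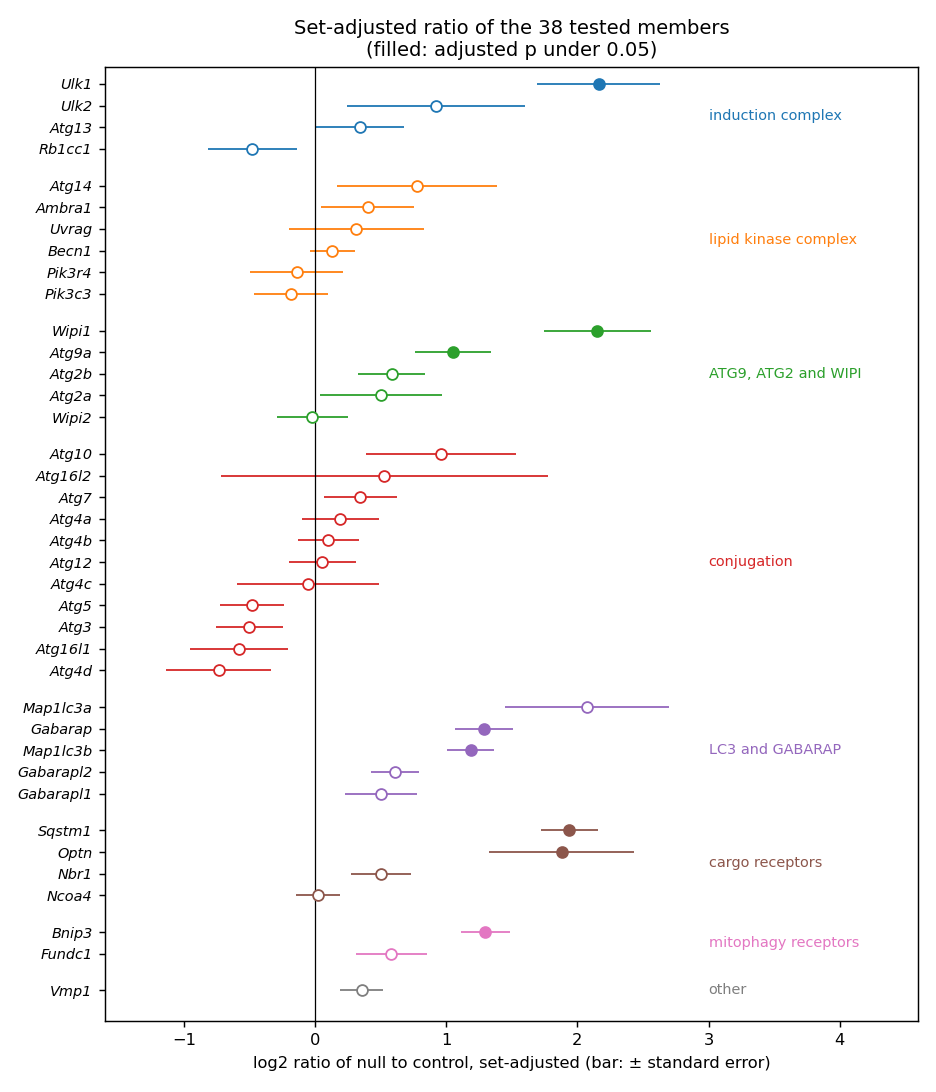
Fitted log2 ratio of null to control with the title set as a term (horizontal axis) for the 38 tested autophagy genes, ordered by role (vertical axis), with bars of 1 standard error; filled points are the 8 genes with an adjusted p under 0.05. The called genes lie between 1.05 and 2.16, and the 11 conjugation genes lie on both sides of 0, from −0.73 to 0.96.

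The median log2 ratio of the 38 members was 0.45 with the title set as a term and 0.53 with group alone, beside medians of 0.04 and 0.13 over all tested genes. With the title set as a term 29 of the 38 ratios were above 0, against 52.4% of all tested genes, and with group alone 34 were, against 56.3%. Without any model, all 3 null libraries lay above all 3 control libraries for 10 of the 38 tested members, against 14.9% of all tested genes, and below them for 1, Atg5, against 9.16% of all tested genes.

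Among the induction complex, Ulk1, the kinase that starts autophagosome formation, rose. Its level was 13.6, 3.94 and 6.19 CPM in control replicates 1 to 3 and 28.7, 42.6 and 30.7 CPM in null replicates 1 to 3. The 3 null libraries were all higher than the 3 control libraries. The group means were 7.92 ± 5.07 and 34.0 ± 7.50 CPM (SD, n = 3 each), and the log2 ratio was 2.16 ± 0.47 (SE; edgeR adjusted p = 0.0121 with the title set, 0.110 without). The call was lost without null replicate 1 (log2 2.56, edgeR adjusted p = 0.122) and without control replicate 3 (1.74, adjusted p = 0.128). The most abundant gene of the complex by CPM was Rb1cc1, which encodes the scaffold FIP200. It was read at 16.4, 19.0 and 37.8 CPM in control replicates 1 to 3 and at 11.8, 17.9 and 40.4 CPM in null replicates 1 to 3. These values overlapped, and its 2 highest libraries, 1 of each group, were both lettered. Ulk2, the paralogue of Ulk1, and Atg13, the adaptor that ties the kinase to FIP200, had ratios of 0.92 ± 0.68 and 0.34 ± 0.34 (SE), and neither passed in edgeR (adjusted p = 0.424 and 0.575). The row 9430023L20Rik, an older symbol of Atg101 in RefSeq and so outside the 40 by name, encodes a further subunit of this complex and had a ratio of 0.09 ± 0.31 (chosen after its values were seen).

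No gene of the lipid kinase complex passed the test, and their median log2 ratio was 0.22. Becn1, which encodes Beclin 1, had the highest mean CPM among them, with 61.4, 51.9 and 125 CPM in control replicates 1 to 3 and 62.9, 129 and 141 CPM in null replicates 1 to 3. The groups overlapped, and all 3 lettered libraries lay above all 3 unlettered ones. Its ratio of null to control was 0.13 ± 0.17 (SE; edgeR adjusted p = 0.666), and 29.56% of its exon bases are shared with Cntd1 on the opposite strand, so the reads of both cannot be told apart without strand. Pik3c3, the catalytic subunit VPS34, and Pik3r4, its regulatory subunit VPS15, had ratios of −0.18 ± 0.28 and −0.14 ± 0.36. Atg14, which directs the kinase to the forming autophagosome, ranged from 5.78 to 20.2 CPM in control and from 10.54 to 35.4 CPM in null libraries, with a ratio of 0.78 ± 0.61 that did not pass (edgeR adjusted p = 0.460). Ambra1, a regulator of Beclin 1, had a ratio of 0.40 ± 0.35. Uvrag, a subunit of the other form of the complex, was read at 0.905 to 1.33 CPM in the 3 unlettered libraries and at 10.2 to 19.5 CPM in the 3 lettered ones, with both groups in each set.

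Of the ATG9, ATG2 and WIPI group, Atg9a and Wipi1 rose. Wipi1, which binds the lipid product of VPS34 on the membrane, was read at 1.93, 2.13 and 8.60 CPM in control replicates 1 to 3 and at 15.6, 20.9 and 26.1 CPM in null replicates 1 to 3. The groups did not overlap, and their means were 4.22 ± 3.80 and 20.9 ± 5.25 CPM (SD, n = 3 each). The log2 ratio was 2.15 ± 0.41 (SE; edgeR adjusted p = 0.00612 with the title set, 0.162 without). It was 1.44 without null replicate 1, where the call was lost (edgeR adjusted p = 0.227), and 2.92 without control replicate 3. Atg9a, the membrane protein that seeds the autophagosome, was read at 12.4, 19.7 and 14.1 CPM in control replicates 1 to 3 and at 33.4, 33.0 and 25.9 CPM in null replicates 1 to 3. Here too the 3 null libraries were the 3 highest, and the means were 15.4 ± 3.80 and 30.7 ± 4.20 CPM (SD, n = 3 each). The log2 ratio of 1.05 ± 0.29 (SE) had an edgeR adjusted p of 0.0366 with the title set and of 0.208 without. Its call was lost in 4 of the 6 fits that leave out a library, at ratios between 0.91 and 1.05. These were the fits without control replicate 1 (edgeR adjusted p = 0.104), control replicate 3 (0.151), null replicate 1 (0.281) and null replicate 2 (0.101).

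Wipi2, the relative of Wipi1 that recruits the conjugation machinery, had a higher mean CPM than the rest of this group. It was read at 30.2, 18.7 and 71.8 CPM in control replicates 1 to 3 and at 18.5, 79.0 and 101 CPM in null replicates 1 to 3. The libraries separated by title letter and not by group, and its ratio was −0.02 ± 0.27 (SE; edgeR adjusted p = 0.971). Atg2b, a lipid transfer protein, had no overlap between the groups, with 21.3 to 25.3 CPM in control and 27.0 to 36.9 CPM in null libraries, but its ratio of 0.58 ± 0.26 did not pass (edgeR adjusted p = 0.165). Its paralogue Atg2a had a ratio of 0.50 ± 0.47. Atg9b did not pass the filter on low counts, with 0 to 0.140 CPM in the control libraries and 0.117, 2.82 and 2.58 CPM in null replicates 1 to 3, and it shares 7.53% of its exon bases with Nos3 on the opposite strand.

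The 11 conjugation genes showed no call in either direction, their median log2 ratio was 0.05 and 6 of the 11 ratios were above 0. These genes encode the proteases that trim LC3 and its relatives (Atg4a to Atg4d), the enzymes that activate and transfer them (Atg7, Atg3, Atg10), and the complex that attaches them to membrane (Atg5, Atg12, Atg16l1, Atg16l2). The smallest edgeR adjusted p among them, 0.226, belonged to Atg5. Its level was 37.0, 44.3 and 32.2 CPM in control replicates 1 to 3 and 26.4, 26.4 and 24.6 CPM in null replicates 1 to 3. All null libraries lay below all control libraries, at a log2 ratio of −0.48 ± 0.24 (SE). Atg10, which joins ATG12 to ATG5, lay the other way, with 3.20 to 3.70 CPM in control and 4.03, 4.47 and 11.3 CPM in null libraries, of which the highest was null replicate 1. Its ratio of 0.96 ± 0.57 did not pass (edgeR adjusted p = 0.312). Atg4b, the protease with the highest mean CPM of the conjugation genes, was read at 25.5, 33.4 and 41.6 CPM in control replicates 1 to 3 and at 37.0, 39.8 and 36.9 CPM in null replicates 1 to 3. The null libraries lay within the control range, and the ratio was 0.10 ± 0.24 (SE; edgeR adjusted p = 0.824). Atg3 and Atg4d followed the title set, with 10.1 to 18.6 and 6.25 to 21.5 CPM in the unlettered and 46.8 to 62.4 and 43.0 to 58.9 CPM in the lettered libraries. Atg4d shares 23.17% of its exon bases with Kri1 on the opposite strand. Atg16l2 was near the floor in every library, from 0 to 1.29 CPM, and the remaining members of this group, Atg4a, Atg4c, Atg7, Atg12 and Atg16l1, had ratios between −0.58 and 0.34.

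All 5 members of the LC3 and GABARAP family, the ubiquitin-like proteins that coat the autophagosome and bind cargo receptors, had ratios above 0, and 2 of the 5 rose. Map1lc3b, which encodes LC3B, was read at 360 CPM in control replicate 1, 281 in control replicate 2 and 166 in control replicate 3, and at 871, 345 and 287 CPM in null replicates 1 to 3. The groups overlapped over all libraries, because the unlettered controls lay above or close to the lettered null libraries, and did not overlap within either title set. Their means were 269 ± 97.4 and 501 ± 321 CPM (SD, n = 3 each), and the log2 ratio was 1.19 ± 0.18 (SE; edgeR adjusted p = 0.00148 with the title set, 0.464 without). Gabarap was read at 104, 98.0 and 111 CPM in control replicates 1 to 3 and at 355, 217 and 160.5 CPM in null replicates 1 to 3. The null libraries were all higher than the controls, and the controls differed among themselves by little (mean 104 ± 6.75 CPM against 244 ± 100.2 in the null group; SD, n = 3 each). The log2 ratio was 1.29 ± 0.22 (SE; edgeR adjusted p = 0.00365 with the title set, 0.132 without). Null replicate 1 held the highest value of both genes, and without it the ratios were 0.92 for Map1lc3b and 0.75 for Gabarap, with edgeR adjusted p = 0.0764 and 0.157.

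The remaining 3 family members each lay higher in all null than in all control libraries and did not pass the test. Map1lc3a, which encodes LC3A, was read at 2.52, 0.373 and 5.39 CPM in control replicates 1 to 3 and at 7.71, 19.2 and 14.6 CPM in null replicates 1 to 3, with a ratio of 2.07 ± 0.62 (SE; edgeR adjusted p = 0.0503). Gabarapl2 was read at 78.1 to 98.1 CPM in control and 102 to 164 CPM in null libraries, with a ratio of 0.61 ± 0.18 (SE; edgeR adjusted p = 0.0509). Gabarapl1, at 16.7 to 19.4 and 22.6 to 33.0 CPM, had a ratio of 0.50 ± 0.27 (SE; edgeR adjusted p = 0.267). DESeq2 fitted with both terms called Map1lc3a and Gabarapl2 as well.

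Levels per kilobase of exon allow the family members to be compared with each other, as far as the exon lengths hold for these cells. The lengths join the exons of all annotated transcripts of a gene, 5182 bases for Map1lc3b and 1351 for Gabarap. By CPM without length, Map1lc3b was higher than Gabarap in every library. The summed level of the 5 genes was 204, 196 and 179.6 CPM per kilobase in control replicates 1 to 3 and 548, 323 and 267 in null replicates 1 to 3, with no overlap between the groups. Gabarap made up 37.6%, 37.0% and 46.0% of that sum in control replicates 1 to 3 and 48.0%, 49.6% and 44.5% in null replicates 1 to 3. Map1lc3b made up 34.0%, 27.7% and 17.9% of the control sums against 30.7%, 20.6% and 20.8% of the null sums, in the same order, so its share overlapped between the groups and was smaller in the lettered than in the unlettered libraries of each group. Gabarapl2 made up 22.8%, 29.8% and 27.6% of the control sums against 17.8%, 18.8% and 23.9% of the null sums. Map1lc3a and Gabarapl1 were the minor members, with at most 5.35% and 5.91% of the sum in any library.

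**Figure D2:**
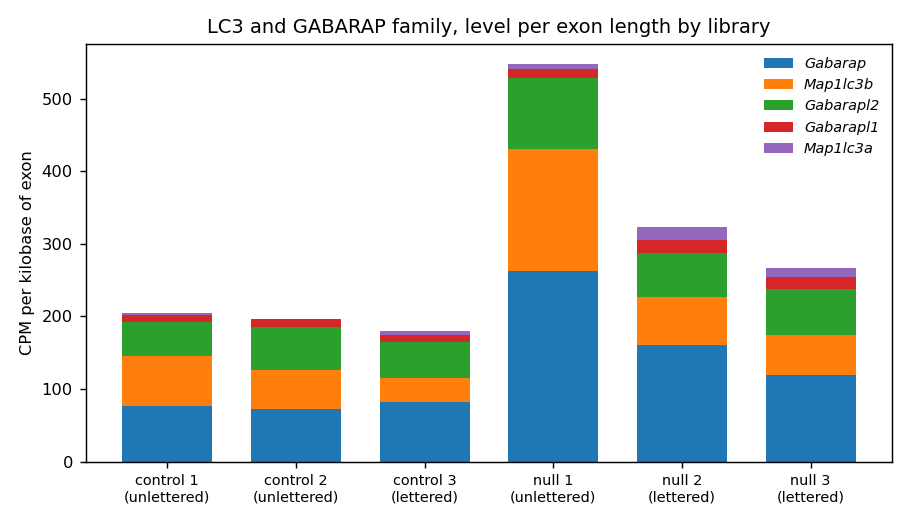
Level per exon length (CPM per kilobase, vertical axis) of the 5 LC3 and GABARAP genes in each of the 6 libraries (horizontal axis, control before null, with the title set under each), stacked to the family sum. The sum lies between 179.6 and 204 in the control and between 267 and 548 in the null libraries, and Gabarap and Map1lc3b carry most of it in null replicate 1.

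The cargo receptors held the member with the smallest adjusted p. Sqstm1 encodes p62, which binds ubiquitinated cargo and LC3 and is itself degraded by autophagy. It was read at 23.0, 15.5 and 98.4 CPM in control replicates 1 to 3 and at 96.2, 318 and 263 CPM in null replicates 1 to 3. Control replicate 3 and null replicate 1 lay side by side over all libraries, but within each title set the null libraries were the higher ones. The means were 45.6 ± 45.8 and 226 ± 116 CPM (SD, n = 3 each), and the log2 ratio was 1.94 ± 0.22 (SE; edgeR adjusted p = 0.000253 with the title set, 0.224 without). The call held in all 6 fits that leave out a library, with ratios between 1.55 and 2.33. Optn encodes optineurin, a receptor for damaged mitochondria and bacteria. Its level was 1.78, 0.586 and 18.3 CPM in control replicates 1 to 3 and 10.52, 40.2 and 23.5 CPM in null replicates 1 to 3, so the groups overlapped and did not overlap within the title sets. Its log2 ratio of 1.88 ± 0.55 (SE; edgeR adjusted p = 0.0468 with the title set, 0.536 without) was the call nearest to the threshold. It was lost without null replicate 1 (0.79, edgeR adjusted p = 0.562), control replicate 1 (1.83, 0.124), control replicate 2 (1.37, 0.100) or null replicate 2 (1.95, 0.138), and with RLE size factors in edgeR (1.84, 0.0523) or globin left out (1.82, 0.0551). Without control replicate 3 it was 3.30.

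Ncoa4, the receptor that delivers ferritin to the lysosome and so frees iron, had the highest mean CPM of all members in both groups. In null replicate 1 Map1lc3b was higher, at 871 CPM. Ncoa4 was read at 722, 726 and 891 CPM in control replicates 1 to 3 and at 623, 1139.7 and 996 CPM in null replicates 1 to 3. Null replicate 1 was the lowest and null replicate 2 the highest of the 6, and the ratio was 0.02 ± 0.16 (SE; edgeR adjusted p = 0.949). Nbr1, a receptor related to p62, was read at 35.4 to 41.3 CPM in control and 42.9 to 77.7 CPM in null libraries without overlap, and its ratio of 0.50 ± 0.23 did not pass (edgeR adjusted p = 0.177).

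Of the 2 mitophagy receptors among the members, Bnip3 rose and Fundc1 did not pass. Bnip3, a mitochondrial outer membrane protein that binds LC3 and is known as a target of hypoxia signalling, was read at 95.0, 73.8 and 36.7 CPM in control replicates 1 to 3 and at 189.8, 107 and 89.9 CPM in null replicates 1 to 3. Over all libraries null replicate 3 lay below control replicate 1, and within each title set the null libraries lay above the controls. The means were 68.5 ± 29.5 and 129 ± 53.4 CPM (SD, n = 3 each), and the log2 ratio was 1.30 ± 0.19 (SE; edgeR adjusted p = 0.00121 with the title set, 0.383 without). It passed in all 6 fits that leave out a library, with ratios between 1.16 and 1.42. Fundc1, a further outer membrane receptor, was read at 12.4 to 23.7 CPM in control and 18.5 to 32.5 CPM in null libraries, with a ratio of 0.58 ± 0.27 (SE; edgeR adjusted p = 0.191).

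Vmp1, a membrane protein needed for autophagosome formation, was read at 163, 155 and 102 CPM in control replicates 1 to 3 and at 176, 147 and 156 CPM in null replicates 1 to 3. The groups overlapped, and the ratio was 0.35 ± 0.17 (SE; edgeR adjusted p = 0.191). Trp53inp2, which encodes a partner of VMP1 and LC3 in autophagosome formation, did not pass the filter on low counts. It had 1, 0 and 0 reads in control replicates 1 to 3 and 44, 96 and 4 in null replicates 1 to 3. The ratio of summed reads per library size was 121, with a 95% exact interval of 21.4 to 4815 that covers counting error only. Single libraries moved it by much: it was 72.7 with control replicate 2 left out, 65.7 with control replicate 3 and 61.9 with null replicate 2. With null replicate 3 left out it was 179.9, and with null replicate 1 left out 121. Without control replicate 1, which held the only control read, the null level was at least 34.6-fold higher (against 3 counts over the control group).

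**Figure D3:**
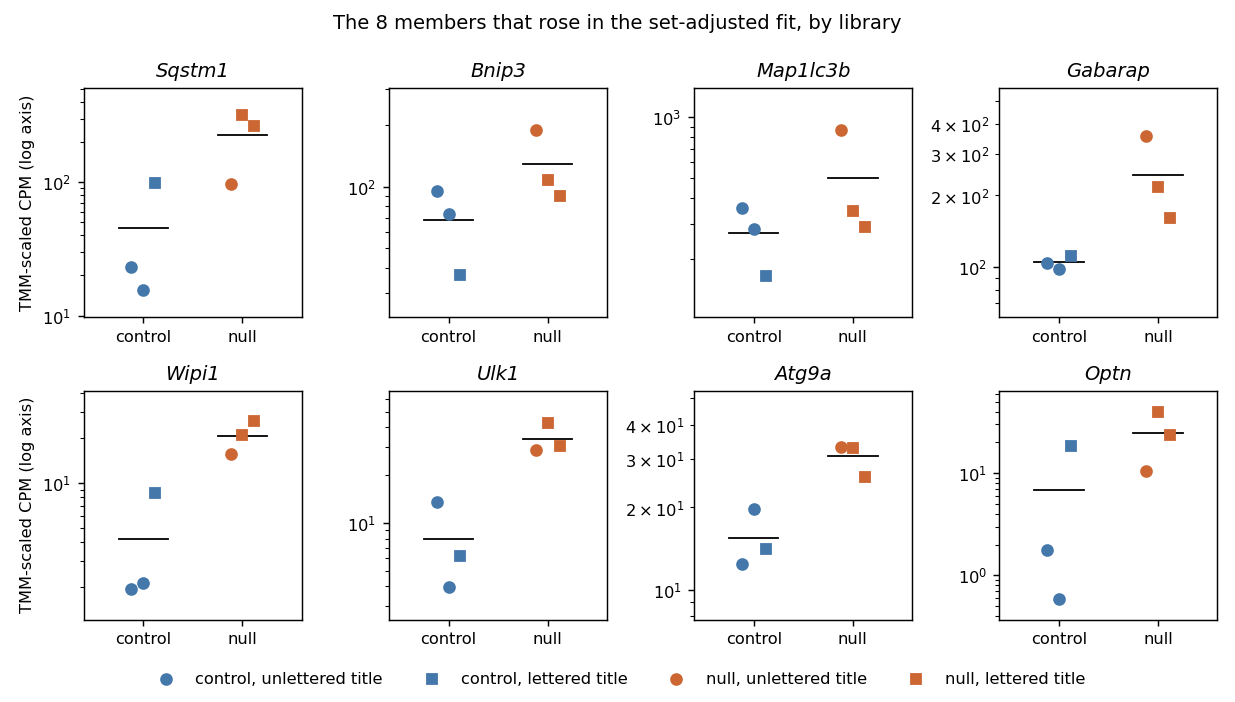
Level in each of the 6 libraries (CPM, log axis, vertical) of the 8 called genes, with control and null libraries set apart (horizontal axis), the title sets marked by symbol and the group mean as a bar. Ulk1, Atg9a, Wipi1 and Gabarap do not overlap between the groups, and Map1lc3b, Sqstm1, Optn and Bnip3 separate within a title set only.

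Ranked by level per kilobase of exon, the same 3 genes led the 40 members in both groups, namely Ncoa4 (mean 190.3 CPM per kilobase in the control and 224 in the null group), Gabarap (77.3 and 181) and Map1lc3b (51.9 and 96.7). Sqstm1 stood at rank 8 in the control and at rank 4 in the null group, with 16.2 and 80.0 CPM per kilobase. Map1lc3a moved from rank 28 to 12, Optn from 27 to 16, Ulk1 from 33 to 21 and Wipi1 from 35 to 26. These ranks depend on the exon lengths used, are a description of the means and were not tested.

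Members differed by title set as well as by genotype. In the fit with both terms, 12 of the 38 members were higher and 3 lower in the lettered than in the unlettered libraries, against 17.7% of all tested genes called higher and 10.9% lower. Among the 8 genes that rose in null libraries, Sqstm1 (log2 1.97, edgeR adjusted p = 4.05e-05), Optn (2.70, 0.00383) and Wipi1 (1.29, 0.0316) were higher in the lettered set. Map1lc3b (−1.20, 0.000308) and Bnip3 (−1.07, 0.00105) were lower in it, as was Fundc1 (−0.81, 0.0445). The shift by title set was larger than the ratio of null to control for Optn (2.70 against 1.88). It was about as large for Sqstm1 (1.97 against 1.94) and, with the opposite sign, for Map1lc3b (−1.20 against 1.19). Among the members not called, Uvrag, Atg4d, Atg3 and Wipi2, for example, had larger shifts by title set than by genotype, of 3.45, 2.47, 2.12 and 1.92 on the log2 scale (edgeR adjusted p = 0.00051, 0.000779, 8.15e-05 and 0.000255). What the letter stands for is not given in the labels, and the set cannot be told apart from whatever else differed between those libraries.

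Within the sets, the 38 members had a median ratio of 0.33 among the unlettered libraries and of 0.40 among the lettered ones, and 28 of the 38 were above 0 in each. The sign was the same in both sets for 30 of the 38 members, beside 68.6% of all tested genes. Each of the 8 called genes lay above its controls in both sets. The 8 were picked on these same libraries by the test with the title set as a term, which favours such genes, so this is a description only. The log2 ratios in the unlettered and the lettered set were 2.34 and 1.55 for Sqstm1, 1.18 and 1.42 for Bnip3, 1.45 and 0.92 for Map1lc3b, 1.95 and 2.52 for Ulk1, and 1.09 and 1.05 for Atg9a. They stood further apart for Gabarap (1.81 and 0.74), Wipi1 (2.88 and 1.43) and Optn (3.20 and 0.74). A test of the difference between the sets called 0 of the 38 members in edgeR, against 0.00951% of all tested genes called in either direction, with 2 members at an unadjusted p under 0.05, Gabarap (adjusted p = 0.568) and Optn (adjusted p = 0.609), which is 5.26% of the members against 7.21% of all tested genes. DESeq2 called 1, Gabarap (log2 −1.09, adjusted p = 0.0494). The share of all tested genes called by that DESeq2 test is not given here, and the edgeR share above does not stand in for it.

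**Figure D4:**
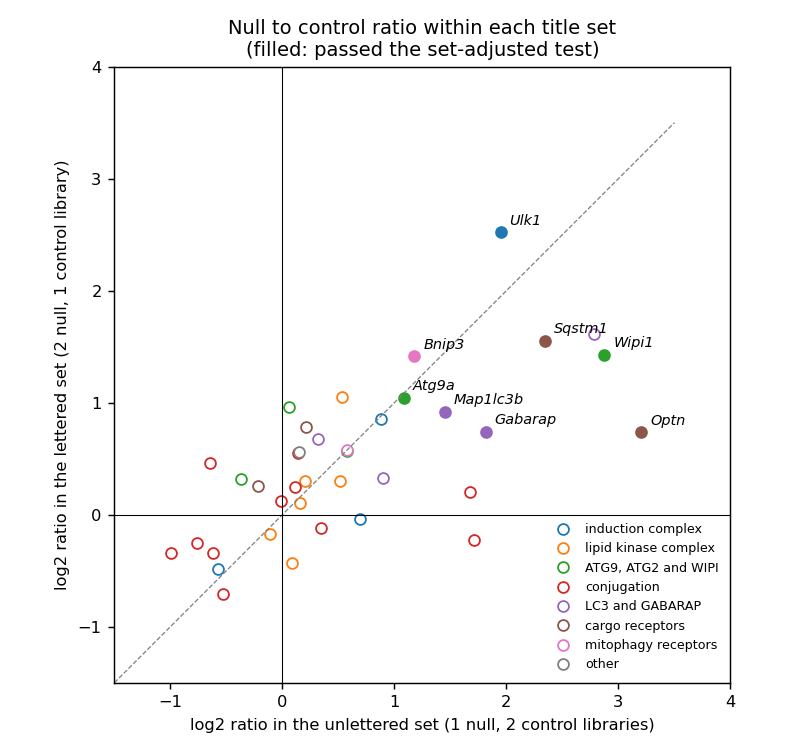
Log2 ratio of null to control in the unlettered set (2 control and 1 null library, horizontal axis) against that in the lettered set (1 control and 2 null libraries, vertical axis) for the 38 tested genes, with the 8 called genes labelled. The called genes, which were picked on these same libraries, all lie in the upper right part of the plot, with Ulk1 and Bnip3 above the diagonal and the other 6 below it.

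The sex-linked transcripts also differed between libraries. Control replicate 1 was the only control library with Y-linked transcripts, which all 3 null libraries held. In the lettered set the control library lacked them and both null libraries held them, so their presence and the genotype cannot be told apart there. Among the 8 called genes, Map1lc3b and Bnip3 did not have all null libraries above control replicate 1. Both genes were lower in the lettered set, which held null replicates 2 and 3, whereas control replicate 1 was unlettered. This comparison therefore mixes sex with title set. Null replicate 1, of the same set as control replicate 1, lay above it for Map1lc3b (871 against 360 CPM) and Bnip3 (189.8 against 95.0 CPM). The part of sex in the results was not tested.

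The sequence upstream of the gene start was taken from RefSeq (build GRCm38.p6) for the 34 of 40 members with an entry. The E-box CACGTG, a palindrome that TFEB and related factors bind, stood in the 250 bases before the start of 4 of the 34 members (Atg3, Atg5, Atg7 and Bnip3) and of 6.86% of all 27025 genes. The letters TGACNNNGC of the antioxidant response element, searched on both strands, stood in 4 of 34 (Ulk2, Atg13, Ncoa4 and Vmp1) and in 11.5% of all genes. The letters AGATAA, which the erythroid factor encoded by Gata1 binds, also searched on both strands, stood in 2 of 34 (Atg4a and Atg4d) and in 11.4% of all genes. Bnip3 was thus the only one of the 8 genes that rose with any of the 3 motifs in this window. Printed here are Sqstm1 and Bnip3, whose calls held in every fit that left out a library, Ulk1, which had the largest ratio, and for contrast Atg3, which did not pass and holds the E-box at 2 places. Each run is read 5′ to 3′ along the gene and covers the 200 bases that end 51 bases before the start, with CACGTG in capitals.
Sqstm1, chr11:50210871-50211070, minus strand: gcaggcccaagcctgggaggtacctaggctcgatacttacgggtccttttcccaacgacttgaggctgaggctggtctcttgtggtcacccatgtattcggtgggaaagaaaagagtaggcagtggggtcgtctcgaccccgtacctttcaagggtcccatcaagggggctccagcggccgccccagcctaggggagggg
Bnip3, chr7:138909557-138909756, minus strand: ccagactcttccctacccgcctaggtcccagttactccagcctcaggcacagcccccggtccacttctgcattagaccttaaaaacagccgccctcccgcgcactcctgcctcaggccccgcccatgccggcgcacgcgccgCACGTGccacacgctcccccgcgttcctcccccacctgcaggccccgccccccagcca
Ulk1, chr5:110810132-110810331, minus strand: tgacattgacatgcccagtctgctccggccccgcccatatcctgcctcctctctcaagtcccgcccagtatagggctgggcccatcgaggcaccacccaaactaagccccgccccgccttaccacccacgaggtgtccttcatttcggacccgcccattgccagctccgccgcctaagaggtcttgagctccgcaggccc
Atg3, chr16:45158579-45158778, plus strand: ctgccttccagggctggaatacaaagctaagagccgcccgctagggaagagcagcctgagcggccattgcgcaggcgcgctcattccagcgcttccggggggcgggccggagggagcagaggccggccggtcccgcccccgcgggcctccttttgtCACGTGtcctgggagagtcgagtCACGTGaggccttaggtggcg
A match is a description of these letters and not a site shown to be bound, and a window without a match says nothing about the factor.

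Of 50 other genes of the pathway, 47 were tested, and with the title set as a term 6 rose and 1 fell in the null libraries. These are 12.8% and 2.13% of those tested, against 8.65% and 4.16% of all tested genes. With group alone 1 rose, Trp53inp1. The count of 6 became 1 when null replicate 1 was left out and 3 when control replicate 2, control replicate 3 or null replicate 2 was. The shares of all tested genes called in those fits are not given here, so these drops say nothing particular about the pathway genes. Among 15 tested mitophagy genes, 3 rose. Bnip3l, the receptor NIX, was read at 379.5, 368 and 253 CPM in control replicates 1 to 3 and at 572, 416 and 340.2 CPM in null replicates 1 to 3, with a ratio of 0.60 ± 0.15 (SE; edgeR adjusted p = 0.0244). Pink1, the kinase that marks damaged mitochondria, was read at 3.41, 3.99 and 17.1 CPM in control replicates 1 to 3 and at 11.7, 35.3 and 32.7 CPM in null replicates 1 to 3, with a ratio of 1.31 ± 0.31 (SE; edgeR adjusted p = 0.0175). Both overlapped between the groups and separated within the title sets, and each call was lost without any 1 of the libraries other than null replicate 3. Fundc2, the paralogue of Fundc1, was read at 93.2, 82.5 and 41.8 CPM in control replicates 1 to 3 and at 196, 69.1 and 65.9 CPM in null replicates 1 to 3. It overlapped between the groups and rose by 0.93 ± 0.18 (SE; edgeR adjusted p = 0.00621, and 0.203 without null replicate 1). Park2, the ubiquitin ligase that acts with PINK1, was read at 3.11, 2.93 and 0.0465 CPM in control replicates 1 to 3 and at 2.86, 1.59 and 4.45 CPM in null replicates 1 to 3 and did not pass (edgeR adjusted p = 0.422).

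Among 12 phagophore and lipid transfer genes 1 rose, Wdr45, which encodes WIPI4, the partner of ATG2. It was read at 10.2, 12.2 and 15.7 CPM in control replicates 1 to 3 and at 46.3, 52.1 and 30.0 CPM in null replicates 1 to 3, with no overlap and a ratio of 1.71 ± 0.30 (SE; edgeR adjusted p = 0.00380, and 0.175 without null replicate 1). Of 12 genes for fusion with the lysosome none rose and 1 fell, Ykt6, a SNARE protein. Its level was 37.0, 38.8 and 59.9 CPM in control replicates 1 to 3 and 18.8, 40.7 and 36.0 CPM in null replicates 1 to 3, which overlap, with a ratio of −0.82 ± 0.23 (SE; edgeR adjusted p = 0.0366). Its call was kept only without null replicate 3 among the fits that leave out a library. Of 6 tested transcription factors of autophagy genes 1 rose, Tfe3, a relative of TFEB. Its level was 11.7, 4.31 and 12.3 CPM in control replicates 1 to 3 and 18.1, 42.8 and 37.1 CPM in null replicates 1 to 3, without overlap, at 1.47 ± 0.39 (SE; edgeR adjusted p = 0.0303), a call kept without control replicate 1 or null replicate 3 and lost without any 1 of the remaining 4 libraries. Tfeb was read at 0, 0 and 1.12 CPM in control replicates 1 to 3 and at 0.701, 1.85 and 4.14 CPM in null replicates 1 to 3 and did not pass (edgeR adjusted p = 0.200). Foxo3 was read at 0.445, 0.107 and 3.30 CPM in control replicates 1 to 3 and at 1.23, 15.1 and 9.67 CPM in null replicates 1 to 3 and did not pass (edgeR adjusted p = 0.0690). Of 2 tested autophagy genes linked to p53, Trp53inp1, a paralogue of Trp53inp2, rose in both fits. Its level was 0.889, 0.533 and 2.42 CPM in control replicates 1 to 3 and 94.1, 123 and 112 CPM in null replicates 1 to 3, with a ratio of 6.24 ± 0.35 (SE; edgeR adjusted p = 1.97e-06 with the title set, 0.0113 without). Dram2, at 11.3 to 16.4 CPM in control and 19.9 to 27.7 CPM in null libraries, did not pass (0.93 ± 0.29, SE; edgeR adjusted p = 0.0592).

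The genes whose profile over the 6 libraries was most like that of Sqstm1, among all tested genes, were Arpc2 (Pearson r = 0.998), Stk25 (0.997), Aes (0.996), Ube2o (0.995) and Itgb7 (0.995). The 6 libraries share the title sets and the groups, so the likeness covers both differences at once, and none of the 5 is an autophagy gene of the lists used here.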

How the data were processed

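Polyadenylated RNA of 6 libraries was analysed from the raw gene counts deposited by the authors, whole numbers per gene symbol in 1 table per library. Per the submitters' processing notes the tools were FastQC, Trimmomatic 0.32, TopHat2 2.1.0, HTSeq 0.6.1 and edgeR with build mm9; options and strand setting: not given in the sources used here. Per the labels' protocols RNA came from sorted cells with a small-input kit. The 3 unlettered tables held summary lines, left out of library sizes (no feature: 42.9%, 7.72% and 6.07% of reads in control replicates 1 and 2 and null replicate 1; not unique: 24.1%, 22.5% and 32.4%), and 25 symbols turned into dates, mapped back to the March and Septin families.

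Counts were tested in R 4.3.3 with edgeR 4.0.16 (filterByExpr, TMM, estimateDisp, robust glmQLFit, glmQLFTest, 2-sided, Benjamini-Hochberg over 10512 genes at 0.05), with group alone (4 residual degrees of freedom, common coefficient of variation 0.613) and with group plus title set (3 degrees of freedom, 0.399). A further fit held their interaction (2 degrees of freedom). Within a set, the ratio is null minus control mean log2 CPM (prior count 2). DESeq2 1.42.0 and the settings in the closing section were alternatives. No 2 libraries of a group were duplicates (chi-square per degree of freedom 21.9 to 369.1). Exon lengths and overlaps are from GENCODE M21 on GRCm38, used by gene name only.

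The members, lists, title-set term and the rule for named genes were chosen with earlier results of these data known. By that rule, values in every library are given for each member past the threshold and for the most abundant member of each role, and for other pathway genes always for Bnip3l, Pink1, Park2, Tfeb, Tfe3 and Foxo3 and for up to 3 called genes a list. The values of Trp53inp2, Atg5, Atg10, Map1lc3a and Atg9b were added because their libraries were seen to differ.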

Additional observations from a re-analysis of the deposited data

How the results depend on the processing

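Alternatives were DESeq2, RLE size factors in edgeR, no filter on low counts, globin genes left out, a prior count of 0.5 and leaving out each library. No member was called lower under any of them. With group alone the 0 members called higher became 3 with DESeq2 (Ulk1, Wipi1, Sqstm1), 1 without the filter (Ulk1) and 0 to 2 without 1 library (2 without control replicate 3). With the title set as a term the 8 members became 2 to 9 without 1 library, 2 of them without null replicate 1. Over the other 4 alternatives 30 of the 32 calls of these 8 genes held. Trp53inp2 was called in edgeR without the filter (log2 6.41, adjusted p = 0.00748) and without null replicate 3 (log2 6.71, adjusted p = 0.0280). Among the other pathway genes the count called higher with group alone (1) became 3 with DESeq2, 2 without the filter and 0 to 1 without 1 library. With the title set it was 6 and became 1 to 6, and the 1 called lower became 0 to 1, without 1 library. The count of members whose ratio differed between title sets (0) became 1 with DESeq2 and 0 to 1 without 1 library (Gabarap, without null replicate 2), and could not be fitted without null replicate 1 or control replicate 3. Apart from DESeq2 with group alone, the share of all tested genes called in each alternative is not given here. The changed counts are therefore not results about the members or the pathway genes, and the cause of these changes was not tested. The members' median ratio kept its sign throughout. The median over all tested genes with the title set (0.04) ranged from −0.019 to 0.073 without 1 library, and became −0.0071 with globin left out. No called member changed sign in any alternative. No paired analysis was possible because the labels give the libraries no replicate numbers, and the numbers used here pair nothing.

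With 3 libraries a group and 3 to 4 residual degrees of freedom, a gene that missed the threshold is not shown to be unchanged. Genes near the floor, such as Atg9b, Atg16l2, Trp53inp2 and Tfeb, are limited by depth, most so in control replicate 1, the shallowest library. Control genotype and title set are unevenly spread, with 1 control in the lettered set and 1 null library in the unlettered set.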
